A study of Mus musculus with 9 samples.

Results

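The D-type cyclins, the kinases they bind and the pocket proteins that these kinases phosphorylate were followed in mouse brain tumor stem cells in which Gpd1 had been knocked out. The genes were Ccnd1, Ccnd2, Ccnd3, Cdk4, Cdk6, Rb1, Rbl1 and Rbl2, taken by symbol, and all 8 were found among the 21899 genes of the deposited table. All 8 were among the 15827 genes with a mean normalized read count of at least 10 over the libraries, which were tested.

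In growing cells, mitogens raise the D cyclins, which bind and activate Cdk4 and Cdk6. These kinases phosphorylate the retinoblastoma protein (Rb1) and its relatives Rbl1 and Rbl2, the pocket proteins, which otherwise hold E2F transcription factors in repressive complexes. Release of E2F lets the genes of DNA replication be transcribed, so the pathway controls the passage from G1 to S phase. It is among the pathways most often altered in glioma.

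Poly(A) RNA was sequenced from 3 libraries of sgRNA1 KO cells, 3 of sgRNA2 KO cells and 3 of control cells. Gpd1 encodes the cytosolic glycerol phosphate dehydrogenase, which links glycolysis to glycerolipid synthesis. KO cells had received the vector lentiCRISPv2, which carries Cas9 and a guide RNA, by lipofection, had been selected with puromycin and were then expanded from colonies started by single cells. The control libraries are labelled only as brain tumor stem cells, and the labels do not say whether these cells carried a vector, met puromycin or were grown from single cells. Cloning, selection and loss of Gpd1 therefore cannot be told apart in a comparison of KO with control. The labels give neither the genotype of the tumor nor whether libraries of a group came from separate cultures, so p-values measure only the spread between these libraries. The guides are shown because they define both KO groups. Each is followed by its PAM in capitals, read from the Gpd1 transcript or its reverse complement (Gpd1, ENSMUSG00000023019, chr15:99717515-99725005, plus strand, mm10). The sgRNA1 sequence lies on the plus strand and the sgRNA2 sequence on the minus strand.
sgRNA1: aaagtctgcattgtcggctcTGG
sgRNA2: tgcattgctacccacgatctTGG

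Totals per library ran from 39781901 to 42975283 normalized read counts. Gpd1 itself was at 3299, 1347 and 21351 in sgRNA1 KO libraries, at 10812, 10812 and 6945 in sgRNA2 KO libraries, and at 25106, 26566 and 25836 in control libraries. Every KO library lay below the controls, with sgRNA1 KO replicate 3 the closest, but a frameshift need not lower the RNA, so this level does not check the edit, which the labels state was checked by Western blot and DNA sequencing. KO libraries were far more variable than controls, with a median SD over genes of 0.36 on the log2 scale in KO libraries and 0.09 in control libraries. The KO libraries nearest the controls were sgRNA1 KO replicate 3 and sgRNA2 KO replicate 1, whose Pearson correlations with the controls over genes were 0.962 to 0.972, against 0.909 to 0.945 for the other KO libraries. Calls of the 8 genes that change without this pair are given both ways. The pair was picked from these same values, so leaving it out tends to widen the distance of KO from control. Results without it are therefore not an independent check. The 7 stem cell markers summed to 177876 to 252395 in KO libraries and to 259499 to 291017 in control libraries. Sox2, Nes, Olig2, Sox9, Egfr and Vim were abundant in every library, while Prom1 had only 3 to 31 counts in KO libraries and 7 to 15 in control libraries. These markers did not move together. Nes and Vim were lower in every KO library than in every control, Sox2 and Egfr were higher, and Olig2 and Sox9 overlapped. The 5 astrocyte markers summed to 84182 to 207406 in KO libraries and to 46751 to 55658 in control libraries. Most of this sum was Aldoc. Aldoc, Slc1a2 and S100b were higher in every KO library than in every control, and Aqp4 overlapped. Gfap was at 16039, 23509 and 373 in sgRNA1 KO libraries, 999, 916 and 2118 in sgRNA2 KO libraries, and 4827, 3348 and 3480 in control libraries. The oligodendrocyte markers Mbp, Mog and Mag had at most 14 counts in any library. Sums were 292 to 1938 in KO and 316 to 435 in control libraries for 4 neuronal markers, 34 to 64 in KO and 30 to 35 in control libraries for 5 microglial markers found, 42 to 204 in KO and 139 to 186 in control libraries for 3 endothelial markers found, and 20 to 40 in KO and 97 to 113 in control libraries for 4 fibroblast and pericyte markers found. Ptprc had at most 4 counts and Snap25 at most 10 in any library. The part that these markers play in the results was not tested, and in bulk RNA a smaller number of dividing cells and less RNA per cell cannot be told apart.

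Across the knockouts, the D cyclin gene Ccnd1 fell 8.99-fold (95% interval 3.78 to 21.4) and Ccnd3 fell 2.06-fold (1.67 to 2.55). The pocket protein genes Rb1 and Rbl2 each rose 1.73-fold (1.12 to 2.67 and 1.31 to 2.29). Ccnd2, Cdk4, Cdk6 and Rbl1 did not pass the threshold over all KO libraries. The comparison of 6 KO with 3 control libraries used limma on log2(value + 1), two-sided, with Benjamini-Hochberg adjustment over all genes tested and a threshold of 0.05. By the same test 39.3% of all genes tested passed (19.1% higher and 20.2% lower), so 2 of 8 higher and 2 of 8 lower is close to the background for these genes. KO and control values did not overlap for 7 of the 8 genes, 5 lower and 2 higher in KO, against 44.8% of all genes tested (21.1% higher and 23.8% lower). The exception was Cdk6. The median log2 fold change of all genes was -0.01.

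**Figure D1:**
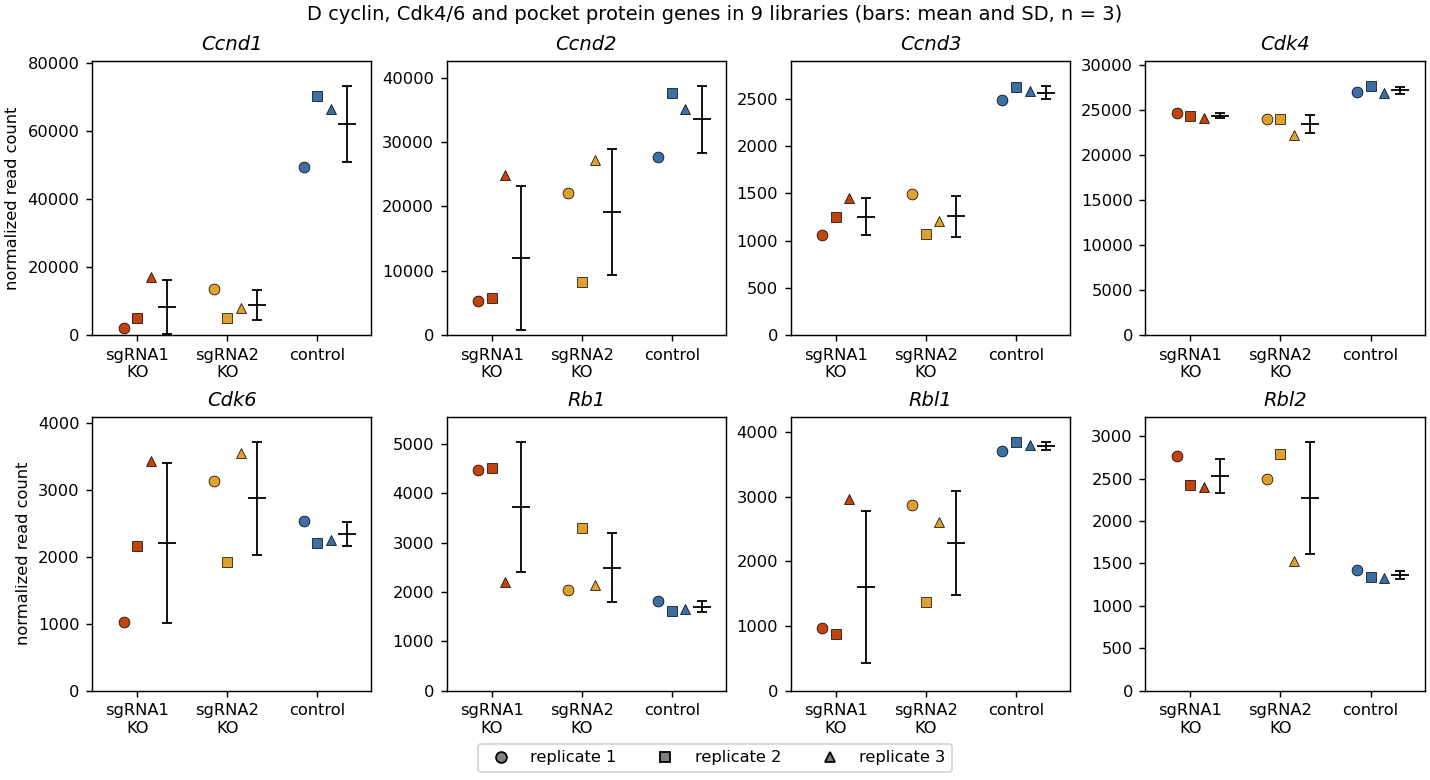
Normalized read counts of the 8 genes (vertical axes, linear, from 0) in sgRNA1 KO, sgRNA2 KO and control libraries; symbols mark the replicate and bars the mean and SD of 3 libraries. Ccnd1 in KO libraries stayed at or below 17091, under the lowest control at 49394, while Cdk6 in KO libraries lay on both sides of the controls.

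The D cyclins are the regulatory subunits that tie the kinases to growth signals. Ccnd1 (ENSMUSG00000070348, chr7:144929931-144939925, minus strand, positions from GENCODE M21 on mm10) encodes cyclin D1. Its normalized read counts were 2178, 5044 and 17091 in sgRNA1 KO libraries, 13600, 4881 and 8032 in sgRNA2 KO libraries, and 49394, 70271 and 66375 in control libraries. Every KO library was far below every control, yet the KO libraries themselves differed widely, with sgRNA1 KO replicate 1 lowest and sgRNA1 KO replicate 3 highest. Relative to the control mean, KO libraries held 3.51% to 27.6% of Ccnd1, with a mean of 13.7%. The log2 fold change was -3.17 (SE 0.56, limma adjusted p = 0.00333), and the exact permutation test, over all 84 ways of assigning 6 libraries to KO and 3 to control, gave p = 0.0119, two-sided, the smallest that it can give. Permutation p-values here and below are for single genes and are not adjusted for the number of genes. Ccnd1 passed against control for sgRNA1 KO (log2 fold change -3.42, SE 0.66, limma adjusted p = 0.00900) and for sgRNA2 KO (-2.92, SE 0.66, limma adjusted p = 0.0190). The sgRNA2 call was lost without sgRNA2 KO replicate 2 (limma adjusted p = 0.0636), control replicate 2 (0.0777) or control replicate 3 (0.0729).

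Ccnd2 (ENSMUSG00000000184, chr6:127125162-127152193, minus strand) encodes cyclin D2, a D cyclin of neural progenitors in the developing mouse brain. Its counts were 5280, 5753 and 24943 in sgRNA1 KO libraries, 22071, 8240 and 27214 in sgRNA2 KO libraries, and 27770, 37712 and 35219 in control libraries. No KO library reached the lowest control, but 3 KO libraries were at 65.8% to 81.1% of the control mean and the other 3 at 15.7% to 24.5%. The mean was 15584 ± 10214 in KO libraries and 33567 ± 5173 in control libraries (SD, n = 6 and 3). Over all KO libraries Ccnd2 missed the threshold, with a log2 fold change of -1.42 (SE 0.56, 95% interval -2.68 to -0.16, limma adjusted p = 0.0699); the exact permutation p was 0.0357. It passed without sgRNA1 KO replicate 3 (limma adjusted p = 0.0419), without sgRNA2 KO replicate 3 (0.0373) and without the pair of KO libraries nearest the controls (log2 fold change -1.87, 0.0215). For sgRNA1 KO alone it passed (log2 fold change -1.87, SE 0.61, limma adjusted p = 0.0424) and for sgRNA2 KO it did not (-0.97, SE 0.61, limma adjusted p = 0.269). The sgRNA1 call was lost without any 1 of the control libraries, sgRNA1 KO replicate 1, sgRNA1 KO replicate 2 or sgRNA2 KO replicate 1, with limma adjusted p from 0.0551 to 0.148, and with quantile scaling (0.0550).

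Ccnd3 (ENSMUSG00000034165, chr17:47505051-47599691, plus strand) encodes cyclin D3, which binds the same kinases. Its counts were 1062, 1245 and 1451 in sgRNA1 KO libraries, 1495, 1066 and 1209 in sgRNA2 KO libraries, and 2492, 2626 and 2588 in control libraries. The KO libraries were tightly grouped here, at 41.3% to 58.2% of the control mean, and those nearest the controls in the whole table had the highest Ccnd3 of the KO libraries. Ccnd3 had a log2 fold change of -1.05 over all KO libraries (SE 0.14, limma adjusted p = 0.00101; exact permutation p = 0.0119), -1.05 for sgRNA1 KO (SE 0.17, limma adjusted p = 0.00534) and -1.04 for sgRNA2 KO (SE 0.17, limma adjusted p = 0.00593). Ccnd3 passed under every alternative tried. Its processed pseudogene Ccnd3-ps on chromosome 4 had 29, 43 and 52 counts in sgRNA1 KO, 39, 28 and 55 in sgRNA2 KO and 99, 96 and 119 in control libraries, so reads could be split between the copies. The exons of Ccnd3 share 4.11% of their length with Bysl, a ribosome assembly factor gene on the opposite strand, which also fell, to 1228 ± 391 in KO libraries, against 2885 ± 206 in control libraries (SD, n = 6 and 3; limma adjusted p = 0.00547). The files do not state whether strand was used in counting, so reads of overlapping genes cannot be told apart. The exons of Ccnd1 share 23.4% of their length with Oraov1 on the opposite strand, which was at 610.5 ± 65.7 in KO libraries and 535 ± 21.6 in control libraries (SD, n = 6 and 3), far below Ccnd1.

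Levels of different genes were set side by side as normalized read counts per kb of merged exons. The D cyclins summed to 1145, 1824 and 6446 per kb in sgRNA1 KO, 5404, 2034 and 4736 in sgRNA2 KO, and 13725, 19230 and 18133 in control libraries, and the groups did not overlap. The KO mean was 21.1% of the control mean. Ccnd1 made 49.3% ± 9.09 of this sum in KO libraries and 77.3% ± 0.719 in control libraries, Ccnd2 45.2% ± 9.25 in KO and 20.997% ± 0.451 in control, and Ccnd3 5.49% ± 3.22 in KO and 1.75% ± 0.278 in control (SD, n = 6 and 3). The ratio of Ccnd1 to Ccnd2 per kb was 0.590 to 1.75 in KO libraries and 3.55 to 3.77 in control libraries. Ccnd2 was above Ccnd1 per kb in sgRNA1 KO replicate 1 and sgRNA2 KO replicate 3, and in no control library.

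**Figure D2:**
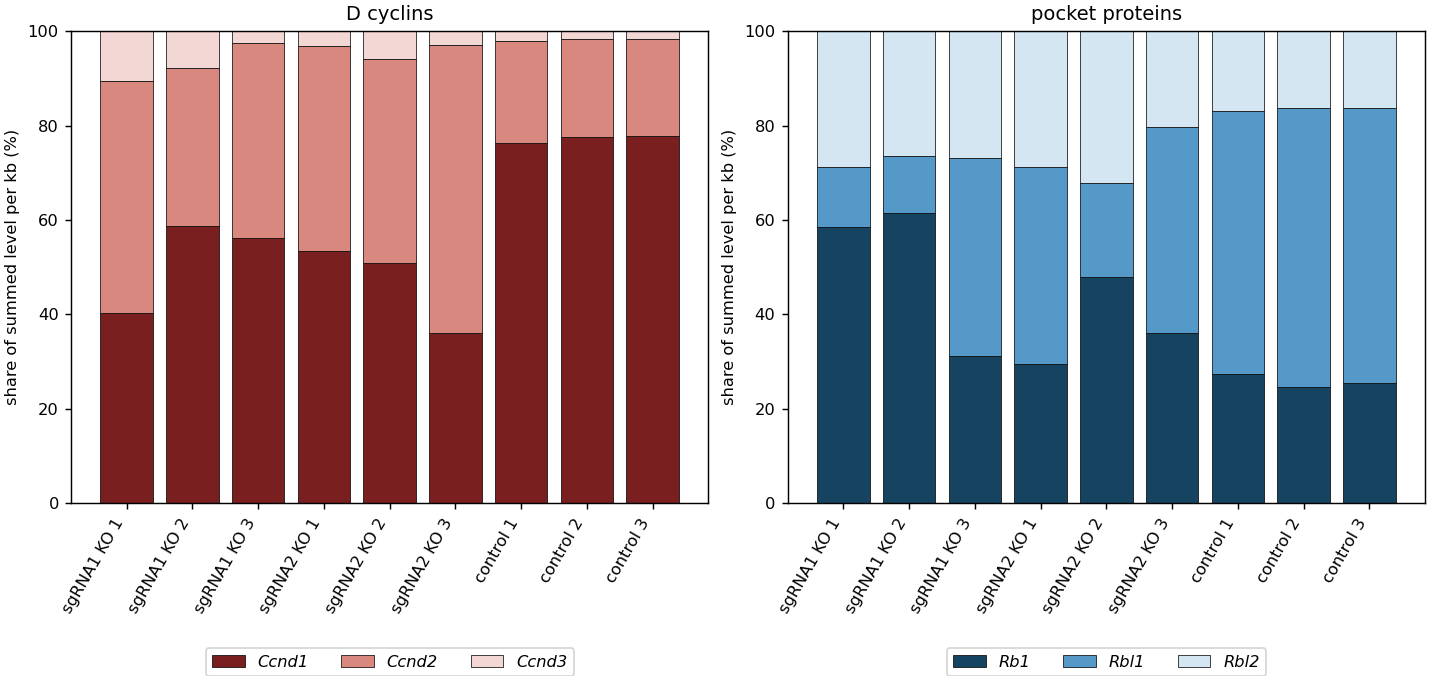
Share of each D cyclin in the summed D cyclins (left) and of each pocket protein gene in their sum (right), in percent of the level per kb, for each KO and control library. Ccnd1 made 36.0% to 58.7% of the D cyclins in KO libraries and 76.4% to 77.7% in control libraries, and Rbl1 made 12.1% to 43.7% of the pocket protein sum in KO libraries and 55.8% to 59.0% in control libraries.

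Cdk4 and Cdk6 are the catalytic subunits. Cdk4 (ENSMUSG00000006728, chr10:127063534-127067920, plus strand) had counts of 24617, 24295 and 24040 in sgRNA1 KO libraries, 24014, 23912 and 22213 in sgRNA2 KO libraries, and 26973, 27623 and 26882 in control libraries. The groups did not overlap, but the distance was small beside that of the cyclins, with KO libraries at 81.8% to 90.6% of the control mean. The log2 fold change was -0.19 (SE 0.08, 95% interval -0.36 to -0.01) and missed the threshold, with limma adjusted p = 0.0796 and exact permutation p = 0.0119, the smallest possible. It passed without sgRNA2 KO replicate 3, its lowest library (-0.17, limma adjusted p = 0.0460). Neither guide passed on its own, with log2 fold changes of -0.16 for sgRNA1 KO (SE 0.09, limma adjusted p = 0.203) and -0.22 for sgRNA2 KO (SE 0.09, limma adjusted p = 0.122). Cdk4 shares 19.7% of its exon length with Tspan31, a tetraspanin gene on the opposite strand, which was at 3744 ± 256 in KO and 3612 ± 94.5 in control libraries (SD, n = 6 and 3).

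The Cdk4 promoter is shown because its gene was the steadiest of the 8 and its sequence repeats 1 motif. It spans chr10:127063285-127063584 (plus strand, RefSeq, GRCm38.p6), from 250 bases before the start site to 50 after it. Capitals mark the E-box CACGTG, the site bound by Myc and related factors, which is its own reverse complement; this motif was searched after the sequence had been read.
Cdk4: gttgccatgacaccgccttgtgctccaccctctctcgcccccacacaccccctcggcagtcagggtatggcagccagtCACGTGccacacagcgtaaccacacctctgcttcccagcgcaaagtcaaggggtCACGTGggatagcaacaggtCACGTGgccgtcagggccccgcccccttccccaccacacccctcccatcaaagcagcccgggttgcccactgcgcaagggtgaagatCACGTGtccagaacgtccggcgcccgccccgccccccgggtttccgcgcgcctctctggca
The E-box occurs 4 times, with first bases at -172, -118, -98 and -11 from the start site, and 7.15% of the 32851 promoters in the RefSeq set hold at least 1. Cdk6 has 1 E-box at -220, and the 2 promoters listed for Ccnd3 have none. Neither an E2F motif nor a cell cycle homology region (CHR) was found in these windows for Cdk4, Cdk6 or Ccnd3. RefSeq promoters were found for 5 of the 8 genes.

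Cdk6 (ENSMUSG00000040274, chr5:3341485-3531008, plus strand) had counts of 1030, 2155 and 3424 in sgRNA1 KO libraries, 3136, 1928 and 3555 in sgRNA2 KO libraries, and 2538, 2210 and 2255 in control libraries. The KO libraries split around the controls. In sgRNA1 KO replicates 1 and 2 and sgRNA2 KO replicate 2 Cdk6 was below every control, at 44.1% to 92.3% of the control mean, and in the other 3 KO libraries it was above every control, at 134% to 152%. Each guide gave libraries on both sides. The log2 fold change was 0.01 (SE 0.35, limma adjusted p = 0.992), and its 95% interval of -0.79 to 0.80 leaves room for a change of either sign by up to 1.74-fold. For sgRNA1 KO it was -0.24 (SE 0.40, limma adjusted p = 0.644) and for sgRNA2 KO 0.25 (SE 0.40, limma adjusted p = 0.661). Without the pair of KO libraries nearest the controls the value over all KO libraries was -0.24 (limma adjusted p = 0.611), and without sgRNA1 KO replicate 1 it was 0.24 (limma adjusted p = 0.412).

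Cdk4 and Cdk6 together summed to 7522 ± 218 per kb in KO libraries and 8526 ± 118 in control libraries (SD, n = 6 and 3), so the KO mean was 88.2% of the control mean. Cdk6 made 0.962% to 3.58% of this sum in KO libraries and 1.82% to 2.14% in control libraries. The summed D cyclins divided by the summed kinases, both per kb, came to 0.150 to 0.843 in KO libraries and 1.62 to 2.22 in control libraries. D cyclin RNA thus exceeded kinase RNA per length in every control library and in no KO library. This depends on the exon lengths, which merge all annotated transcripts of a gene. Without division by length, D cyclin counts exceeded kinase counts in every control, sgRNA1 KO replicate 3 and sgRNA2 KO replicates 1 and 3. They stayed below in sgRNA1 KO replicates 1 and 2 and sgRNA2 KO replicate 2.

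Rb1 (ENSMUSG00000022105, chr14:73183673-73325822, minus strand) encodes the retinoblastoma protein, which mainly binds the activating E2F factors. Its counts were 4476, 4505 and 2208 in sgRNA1 KO libraries, 2033, 3306 and 2152 in sgRNA2 KO libraries, and 1827, 1618 and 1663 in control libraries. All KO libraries were above all controls, with sgRNA1 KO replicates 1 and 2 and sgRNA2 KO replicate 2 well above and the other 3 close to the highest control. Rb1 rose by 0.79 on the log2 scale (SE 0.28, limma adjusted p = 0.0491; exact permutation p = 0.0357). This call lay at the edge of the threshold: leaving out any control, sgRNA1 KO replicate 1, sgRNA1 KO replicate 2 or sgRNA2 KO replicate 2 gave limma adjusted p from 0.0726 to 0.144, and testing all genes with no filter on low values gave 0.0535. Without the pair of KO libraries nearest the controls it was 1.02 (limma adjusted p = 0.0128). Rb1 passed for sgRNA1 KO (log2 fold change 1.06, SE 0.29, limma adjusted p = 0.0242) and not for sgRNA2 KO (0.52, SE 0.29, limma adjusted p = 0.214). It passed for sgRNA2 KO as well without the pair nearest the controls (0.65, limma adjusted p = 0.0293). The sgRNA1 call was lost without any 1 of the control libraries, sgRNA1 KO replicate 1 or sgRNA1 KO replicate 2, with limma adjusted p from 0.0579 to 0.0913. On the opposite strand, Rcbtb2, which shares 8.11% of the exon length of Rb1, was at 2692 ± 165 in KO and 2669 ± 41.1 in control libraries. Lpar6, a lysophosphatidic acid receptor gene that shares 6.78%, fell to 971 ± 219 in KO libraries, against 1443 ± 228 in control libraries (SD, n = 6 and 3; limma adjusted p = 0.0452).

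Rbl1 (ENSMUSG00000027641, chr2:157145893-157204534, minus strand) encodes the pocket protein that is most abundant in dividing cells and is itself a known E2F target. Its counts were 964, 881 and 2966 in sgRNA1 KO libraries, 2871, 1372 and 2606 in sgRNA2 KO libraries, and 3716, 3846 and 3800 in control libraries. All KO libraries were below all controls, at 23.3% to 78.3% of the control mean, and the 3 lowest were the same libraries in which Rb1 was highest. The log2 fold change over all KO libraries was -1.14 (SE 0.41, 95% interval -2.06 to -0.21) and just missed the threshold, with limma adjusted p = 0.0520 and exact permutation p = 0.0357. It passed without sgRNA1 KO replicate 3 (limma adjusted p = 0.0285), sgRNA2 KO replicate 1 (0.0322) or sgRNA2 KO replicate 3 (0.0401), and without the pair nearest the controls (-1.52, 0.00909). Rbl1 passed for sgRNA1 KO (log2 fold change -1.48, SE 0.45, limma adjusted p = 0.0330) and not for sgRNA2 KO (-0.80, SE 0.45, limma adjusted p = 0.214). For sgRNA2 KO it passed without sgRNA1 KO replicate 3, which enters through the shared spread (limma adjusted p = 0.0380), and without the pair nearest the controls (-1.002, limma adjusted p = 0.0183). The sgRNA1 call was lost without any 1 of the control libraries, sgRNA1 KO replicate 1 or sgRNA1 KO replicate 2, with limma adjusted p from 0.0794 to 0.118.

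Rbl2 (ENSMUSG00000031666, chr8:91070057-91123844, plus strand) encodes the pocket protein that prevails in resting cells, where it joins E2f4 and the MuvB core in the DREAM repressor complex. Its counts were 2765, 2421 and 2403 in sgRNA1 KO libraries, 2497, 2793 and 1526 in sgRNA2 KO libraries, and 1418, 1336 and 1330 in control libraries. It was higher in every KO library than in every control, and 5 KO libraries were close together with sgRNA2 KO replicate 3 standing apart near the controls. Rbl2 rose by 0.79 on the log2 scale (SE 0.18, limma adjusted p = 0.00912; exact permutation p = 0.0119), and it was 0.92 without sgRNA2 KO replicate 3 (limma adjusted p = 0.000552). Rbl2 passed for sgRNA1 KO (0.89, SE 0.21, limma adjusted p = 0.0156) and, narrowly, for sgRNA2 KO (0.69, SE 0.21, limma adjusted p = 0.0455). The sgRNA2 call was lost under 11 of 19 alternatives, with limma adjusted p of up to 0.141; without the pair nearest the controls it was 0.0868. The sgRNA1 call was lost without control replicate 2 (limma adjusted p = 0.0631), control replicate 3 (0.0605) or sgRNA1 KO replicate 1 (0.0609). Aktip, a gene of vesicle transport on the opposite strand that shares 9.17% of the exon length, rose as well, to 2593 ± 415 in KO libraries, against 1835 ± 46.2 in control libraries (SD, n = 6 and 3; log2 fold change 0.48, SE 0.14, limma adjusted p = 0.0228).

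The promoters of Rbl1 and Rbl2 are shown because these close relatives lay on opposite sides of the controls. They span chr2:157204485-157204784 (minus strand) for Rbl1 and chr8:91069807-91070106 (plus strand) for Rbl2, each with 250 bases before the start site and 50 after it (RefSeq, GRCm38.p6). Capitals mark an E2F motif (TTTCCCGC, TTTGGCGC, TTTCGCGC or TTTGCCGC) in Rbl1 and a CHR (TTTGAA or TTCGAA) in Rbl2, both searched on both strands.
Rbl1: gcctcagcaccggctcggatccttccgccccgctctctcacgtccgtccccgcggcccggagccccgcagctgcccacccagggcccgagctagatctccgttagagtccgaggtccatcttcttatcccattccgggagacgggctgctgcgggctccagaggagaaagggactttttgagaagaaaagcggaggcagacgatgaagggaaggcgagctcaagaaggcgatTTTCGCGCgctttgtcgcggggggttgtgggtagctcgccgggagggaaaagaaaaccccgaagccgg
Rbl2: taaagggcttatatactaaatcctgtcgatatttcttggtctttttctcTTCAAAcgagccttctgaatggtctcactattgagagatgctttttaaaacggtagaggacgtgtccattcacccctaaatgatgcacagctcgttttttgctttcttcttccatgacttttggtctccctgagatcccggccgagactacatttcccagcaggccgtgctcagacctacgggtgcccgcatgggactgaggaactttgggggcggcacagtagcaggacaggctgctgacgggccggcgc
The Rbl1 window holds 1 E2F motif that starts at -18 and no CHR, and the Rbl2 window holds 1 CHR that starts at -201, on the strand opposite to the one shown, and no E2F motif. In the whole RefSeq set, 2.26% of 32851 promoters hold an E2F motif and 19.2% hold a CHR.

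The pocket protein genes together were nearly level, at 1160 ± 93.3 per kb in KO libraries and 1095 ± 14.1 in control libraries (SD, n = 6 and 3), with overlapping values. Their makeup differed. Rb1 made 44.1% ± 14.0 of the sum in KO libraries and 25.8% ± 1.34 in control libraries, Rbl1 28.7% ± 15.4 in KO and 57.7% ± 1.70 in control, and Rbl2 27.2% ± 3.96 in KO and 16.4% ± 0.380 in control. The ratio of Rbl1 to Rbl2 per kb was 0.440, 0.459 and 1.56 in sgRNA1 KO libraries, 1.45, 0.620 and 2.15 in sgRNA2 KO libraries, and 3.30, 3.63 and 3.60 in control libraries. Rbl1 exceeded Rbl2 in every control library but was the lower of the pair in sgRNA1 KO replicates 1 and 2 and sgRNA2 KO replicate 2.

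Set in order of level per kb, Cdk4 led in KO libraries at 7340 ± 259, followed by Ccnd1 at 1799 ± 1220, Ccnd2 at 1656 ± 1086, Rb1 at 518 ± 193, Rbl1 at 324 ± 163, Rbl2 at 318 ± 61.0, Cdk6 at 181 ± 71.3 and Ccnd3 at 143 ± 21.1 (SD, n = 6). Among neighbors in this order only Cdk4 and Ccnd1 had ranges that did not overlap. In control libraries Ccnd1 led at 13169 ± 2357 per kb, followed by Cdk4 at 8359 ± 124, Ccnd2 at 3568 ± 550, Rbl1 at 632 ± 10.999, Ccnd3 at 293 ± 7.87, Rb1 at 283 ± 18.3, Rbl2 at 180 ± 6.51 and Cdk6 at 167 ± 12.7 (SD, n = 3). There the ranges overlapped only between Ccnd3 and Rb1 and between Rbl2 and Cdk6. Ccnd1 was thus first in control libraries and second in KO libraries, and the mean of Rb1 was above that of Rbl1 in KO libraries and below it in control libraries. Library by library, Rb1 was above Rbl1 in sgRNA1 KO replicates 1 and 2 and sgRNA2 KO replicate 2, and below it in the other 3 KO libraries and in every control.

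**Figure D3:**
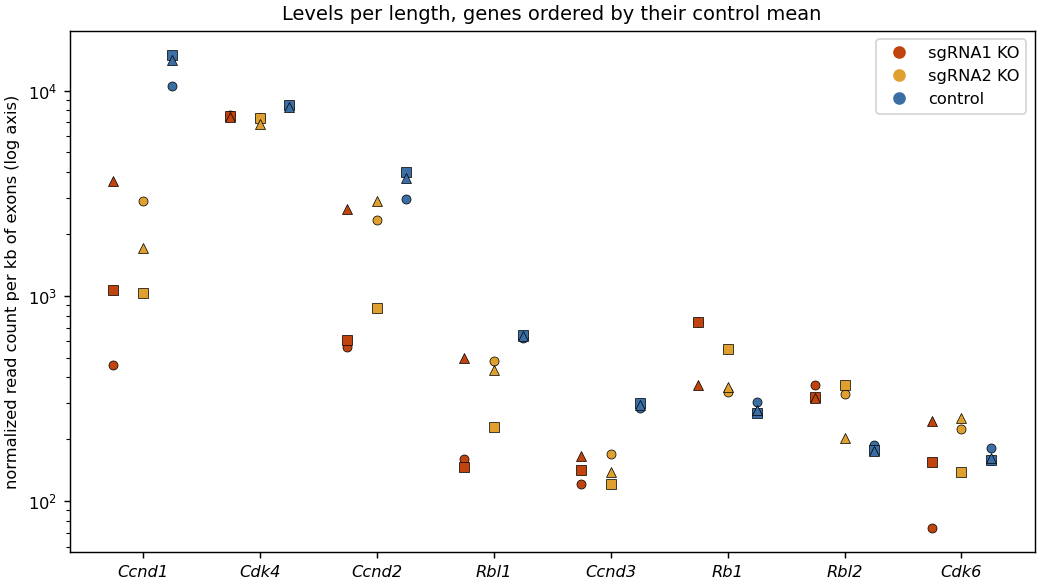
Normalized read count per kb of merged exons (log axis) of the 8 genes in sgRNA1 KO, sgRNA2 KO and control libraries, ordered by the control mean; each point is 1 library, and marker shapes stand for replicates 1 (circle), 2 (square) and 3 (triangle). Ccnd1 averaged 1799 in KO and 13169 in control libraries, while Cdk4 averaged 7340 in KO and 8359 in control libraries.

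Taken guide by guide in 1 fit with 3 groups, sgRNA1 KO against control called 6 of the 8 genes, with Rb1 and Rbl2 higher and Ccnd1, Ccnd2, Ccnd3 and Rbl1 lower, beside 36.0% of all genes tested (17.1% higher and 18.9% lower). sgRNA2 KO against control called 3, with Rbl2 higher and Ccnd1 and Ccnd3 lower, beside 22.1% of all genes tested (11.4% higher and 10.7% lower). These comparisons share the same 3 control libraries. The difference between guides was then tested directly. No gene of the 8 passed for sgRNA1 KO against sgRNA2 KO (limma adjusted p from 0.778 to 0.998), nor did any of the 15827 genes tested in limma (0%), of which 474 had an unadjusted p under 0.05. The intervals were wide. The 95% interval of the log2 difference, sgRNA1 KO minus sgRNA2 KO, ran from -1.99 to 0.99 for Ccnd1, from -2.29 to 0.49 for Ccnd2, from -1.40 to 0.40 for Cdk6, from -0.12 to 1.199 for Rb1 and from -1.69 to 0.34 for Rbl1. It was narrower for Ccnd3 (-0.38 to 0.37), Cdk4 (-0.16 to 0.27) and Rbl2 (-0.28 to 0.68). The calls that only sgRNA1 KO passed are therefore not shown to differ between guides.

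**Figure D4:**
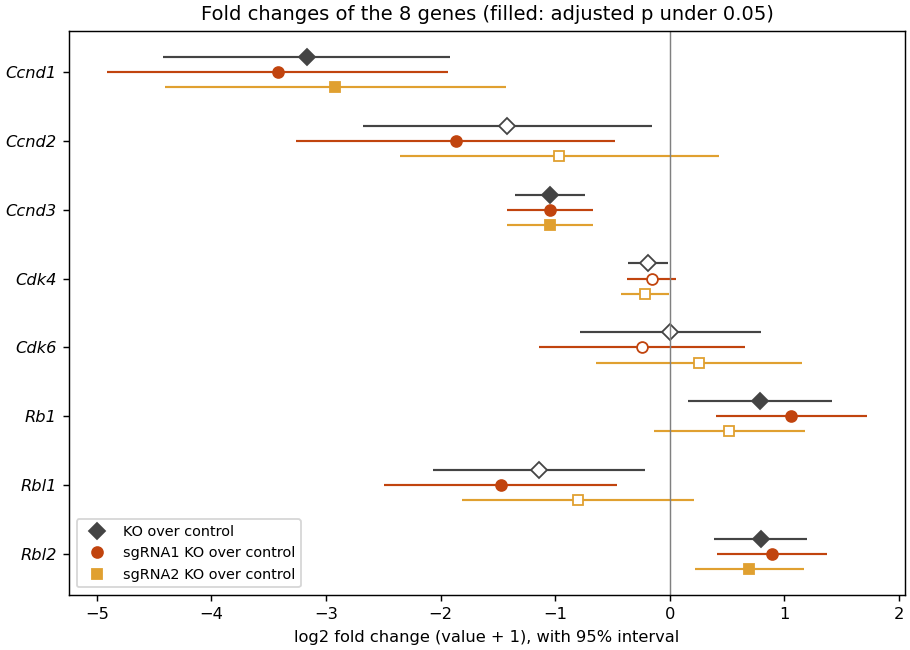
Log2 fold change with its 95% interval for each of the 8 genes in all KO, sgRNA1 KO and sgRNA2 KO libraries, each over control; filled symbols mark a limma adjusted p under 0.05. Ccnd1 and Ccnd3 were below 0 in all 3 comparisons, Rbl2 was above 0 in all 3, and Cdk6 lay at 0.01 for all KO libraries.

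Genes that act with the D cyclins and pocket proteins were taken as 10 lists, 91 genes in all, and all were tested. Errors of their values are SDs over 6 KO and 3 control libraries. The list counts stand beside 19.1% of all genes tested higher and 20.2% lower in KO. Without the pair of KO libraries nearest the controls, 3687 of all genes tested were higher and 3962 lower. Among 10 E2F and DP factors, a family that includes the partners that pocket proteins hold, 5 fell, none rose and 5 did not pass. Their median log2 fold change was -0.996, beside -0.01 for all genes. E2f4, the factor that works mainly with Rbl1 and Rbl2, fell to 1624 ± 224 in KO libraries, against 2815 ± 200 in control libraries (log2 fold change -0.80, SE 0.13, limma adjusted p = 0.00268). Tfdp1, a dimer partner of E2F factors, fell to 3248 ± 1410 in KO libraries, against 7656 ± 327 in control libraries (-1.35, SE 0.32, limma adjusted p = 0.0109). E2f1, E2f2 and E2f7 were the others that fell. Without the pair of KO libraries nearest the controls 9 of 10 fell, and over all alternatives 2 to 9 did.

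Cyclin E with Cdk2 acts next in the pathway and completes the phosphorylation of the pocket proteins. Of 6 genes of this list 5 fell and none rose, with a median of -1.28. Over all alternatives 2 to 6 fell. Ccne2, a cyclin E gene, fell to 570 ± 463 in KO libraries, against 2755 ± 223 in control libraries (log2 fold change -2.65, SE 0.57, limma adjusted p = 0.00705). Cdc25a, the phosphatase that activates Cdk2, fell to 1485 ± 326 in KO libraries, against 2685 ± 215 in control libraries (-0.88, SE 0.19, limma adjusted p = 0.00656).

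Of 17 E2F target genes of S phase, 14 fell, none rose and 3 did not pass (Mcm3, Cdt1 and Tk1), with a median of -1.93. In all 17 every KO library was below every control, beside 23.8% of all genes tested. Mcm7, a subunit of the replicative helicase, fell to 3328 ± 1402 in KO libraries, against 8315 ± 467 in control libraries (log2 fold change -1.43, SE 0.33, limma adjusted p = 0.00913). Pola1, the catalytic subunit of the polymerase that primes replication, fell to 1356 ± 966 in KO libraries, against 5067 ± 256 in control libraries (-2.20, SE 0.52, limma adjusted p = 0.0102). The mean log2 ratio of the list to the control mean was -3.35, -3.05 and -0.71 in sgRNA1 KO libraries and -0.76, -2.47 and -1.25 in sgRNA2 KO libraries. The 3 lowest were sgRNA1 KO replicates 1 and 2 and sgRNA2 KO replicate 2, the libraries with the lowest Ccnd1 and Rbl1 and the highest Rb1. Without the pair nearest the controls all 17 fell, and over all alternatives 2 to 17 did. Against control, 15 of the 17 fell for sgRNA1 KO, beside 18.9% of all genes tested. The list median was -2.42 there, beside -0.01 for all genes. For sgRNA2 KO 2 of the 17 fell, a count close to the 10.7% of all genes tested. The list median for sgRNA2 KO was nonetheless -1.51, beside -0.02 for all genes. None of the 17 passed in the direct comparison of the guides.

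In the list of the MuvB core with B-Myb and FoxM1, the complex that switches between repression with Rbl2 and activation in late cell cycle, 3 of 7 fell and none rose, with a median of -0.82. Rbbp4, a histone-binding subunit, fell to 13558 ± 1560 in KO libraries, against 20854 ± 532 in control libraries (log2 fold change -0.63, SE 0.11, limma adjusted p = 0.00312). Mybl2, which encodes B-Myb, fell to 421 ± 273 in KO libraries, against 1431 ± 127 in control libraries (-2.06, SE 0.54, limma adjusted p = 0.0157). Lin37 and Lin52, both genes of core subunits, had log2 fold changes of -0.17 and 0.15 and did not pass (limma adjusted p = 0.490 and 0.470). Of the other Lin genes of the core, Lin9 fell (-1.08, limma adjusted p = 0.0239). Lin54 did not pass (-0.82, limma adjusted p = 0.115). These Lin genes were named after their values had been seen. Without the pair nearest the controls 5 of 7 fell, and over all alternatives 1 to 5 did.

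Of the 7 Cdk inhibitor genes 2 rose, none fell and 5 did not pass, with a median of -0.36. Cdkn1b, which encodes an inhibitor of Cdk2 in resting cells, rose to 9396 ± 1254 in KO libraries, against 6197 ± 159 in control libraries (log2 fold change 0.59, SE 0.12, limma adjusted p = 0.00542). Cdkn1c, a relative expressed from the maternal allele, rose to 52.7 ± 27.6 in KO libraries, against 10.3 ± 4.16 in control libraries (2.11, SE 0.50, limma adjusted p = 0.0103). Without the pair nearest the controls 3 others of this list fell.

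The list of D cyclin turnover was mixed, with 2 of 8 higher, 2 lower and a median of -0.09. These counts were close to the 19.1% higher and 20.2% lower of all genes tested. Dyrk1b, a kinase that marks cyclin D1 for breakdown, rose to 1731 ± 402 in KO libraries, against 568.3 ± 132 in control libraries (log2 fold change 1.59, SE 0.23, limma adjusted p = 0.00141). Gsk3b, a kinase with the same reported role, rose to 16186 ± 3317 in KO libraries, against 10249 ± 71.8 in control libraries (0.63, SE 0.17, limma adjusted p = 0.0151). Dyrk1a, a close relative of Dyrk1b, fell to 3852 ± 202 in KO libraries, against 5044 ± 390 in control libraries (-0.39, SE 0.09, limma adjusted p = 0.0103). Fbxo4, a subunit of a ubiquitin ligase described for cyclin D1, fell to 322 ± 50.6 in KO libraries, against 500.0 ± 28.2 in control libraries (-0.65, SE 0.16, limma adjusted p = 0.0121). Ambra1, the substrate receptor of the ligase that degrades D cyclins, had a log2 fold change of 0.32 (limma adjusted p = 0.0736) and was named after its value had been seen.

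Among 13 mitogen inputs to the D cyclins, 3 rose and 5 fell, with a median of -0.19. Mapk3, which encodes a MAP kinase of the Ras pathway, rose to 6214 ± 374 in KO libraries, against 3676 ± 174 in control libraries (log2 fold change 0.76, SE 0.09, limma adjusted p = 0.000712). Pdgfra, a growth factor receptor gene of glial progenitors, rose to 2792 ± 1861 in KO libraries, against 490 ± 107 in control libraries (2.20, SE 0.57, limma adjusted p = 0.0147). Jun, an AP-1 factor that activates Ccnd1, fell to 1463 ± 205 in KO libraries, against 3548 ± 605 in control libraries (-1.27, SE 0.15, limma adjusted p = 0.000775). Without the pair nearest the controls 3 rose and 3 fell.

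Further lists held the partners of the pocket proteins and other cyclin-kinase pairs. Of 8 chromatin partners and phosphatases of the pocket proteins 2 fell and none rose, with a median of -0.32: the deacetylase gene Hdac1 fell to 702 ± 85.2 in KO libraries, against 1163 ± 68.8 in control libraries (log2 fold change -0.73, SE 0.13, limma adjusted p = 0.00333), and Hdac2 fell to 8693 ± 716 in KO libraries, against 11249 ± 155 in control libraries (-0.38, SE 0.10, limma adjusted p = 0.0134). Without the pair nearest the controls 4 fell and 1 rose, and over all alternatives 1 to 4 fell and 0 to 2 rose. Of 3 genes of the Cdk-activating kinase only Ccnh, its cyclin, passed, at 1474 ± 152 in KO libraries and 2047 ± 157 in control libraries (-0.48, SE 0.12, limma adjusted p = 0.0118). Of 12 cyclins and Cdks of transcription, which do not act on the pocket proteins in G1, 1 rose and 4 fell, with a median of -0.16. With the pair nearest the controls left out 2 rose and 3 fell. Cdk19, a kinase of the Mediator complex, rose to 5576 ± 1527 in KO libraries, against 2674 ± 134 in control libraries (1.02, SE 0.20, limma adjusted p = 0.00465). Cdk9, a kinase of transcript elongation, fell to 1667 ± 257 in KO libraries, against 2665 ± 133 in control libraries (-0.69, SE 0.14, limma adjusted p = 0.00578), and Cdk12 to 2539 ± 296 in KO libraries, against 3738 ± 286 in control libraries (-0.56, SE 0.12, limma adjusted p = 0.00609).

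**Figure D5:**
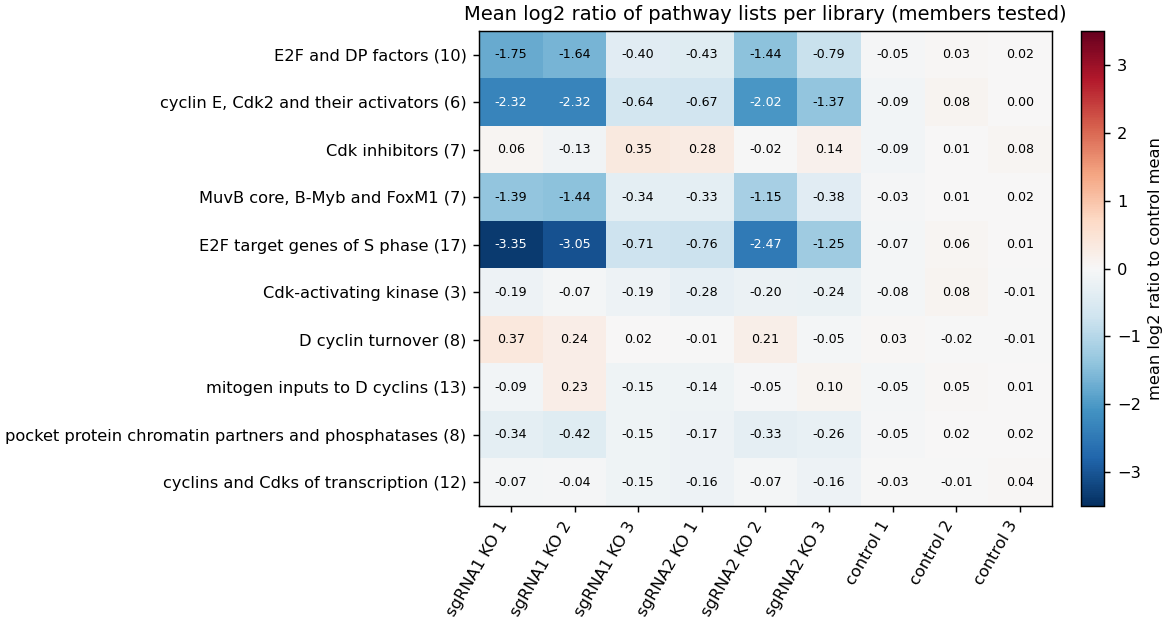
Mean log2 ratio to the control mean of each of 10 gene lists (rows, with the number of genes tested) in each KO and control library (columns); the color scale runs from blue (lower than the control mean) to red (higher). The E2F target genes of S phase ran from -3.35 to -0.71 in KO libraries, and the lists of D cyclin turnover and of transcription cyclins and Cdks stayed nearer 0.

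The genes most like each member over the libraries were ranked by Pearson correlation of log2(value + 1) among 11051 tested genes with a mean of at least 100. These values describe 9 libraries that share their group structure and have no p. Rbl1 was followed by Chtf18 (r = 0.999 over 9 libraries, 0.998 over the 6 KO libraries). Like Rbl1, it was lowest in sgRNA1 KO replicates 1 and 2 and sgRNA2 KO replicate 2. Rb1 was followed by Pou6f1 (r = 0.998) and Nrbp2 (0.997), Ccnd1 by Cnbp and Ltv1 (both 0.997), Ccnd2 by Spryd4 and Psmg1 (both 0.996), and Ccnd3 by Arpc2 (0.997) and Manf (0.994). Cdk4 was followed by Haus2 (0.994) and Acta2 (0.992), and Rbl2 by Slc25a53 (0.995) and Slc25a23 (0.992). Cdk6 had the weakest matches, Dpm2 (0.954) and Spsb4 (0.943). Over the 6 KO libraries alone these correlations ran from 0.963 to 0.999.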

How the data were processed

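Poly(A) RNA libraries of sgRNA1 KO, sgRNA2 KO and control brain tumor stem cells (3 each) were used. The processing tools were STAR 2.4.1d, featureCounts and DESeq2 on build mm10, per the submitters' processing notes; the annotation release and strand setting are not given in the sources used here. The deposited table holds a score per gene and library, read from its values as read counts scaled by 1 factor per library and rounded, so no count test was run and depth is known only through totals of 39781901 to 42975283. Precision is therefore given by replicate spread.

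Values were taken as log2(value + 1), which understates fold changes of low genes, and 15827 genes, those averaging 10 or more, were tested with limma 3.58.1 in R 4.3.3 (mean-variance trend, two-sided, Benjamini-Hochberg over all genes). KO against control used 2 groups, and each guide and the difference between guides used 1 fit with 3 groups. The method was run on simulated data with the same spread in all libraries. That simulation does not cover the wider spread of KO libraries seen here. Single genes also had an exact permutation test over libraries, with p not adjusted. Positions and exon lengths came from GENCODE M21, matched to 21823 of 21899 IDs. The alternatives were pseudocounts of 0.5 and 5, no filter or a mean of at least 50, quantile and median-of-ratios scaling, group variance weights, a replicate block and leaving out libraries.

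Members, lists and alternatives were chosen with earlier results of these data known. Named from each list were up to 2 genes that rose and 2 that fell by smallest p, and the 2 genes most correlated with each member, leaving out predicted genes, clones and pseudogenes; other list genes and Egfr were named after their values were seen. Some genes that this rule names are not reported here.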

Additional observations from a re-analysis of the deposited data

Results flagged for a closer look

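Within the 6 KO libraries, 1 library stood apart from the rest in each of 2 genes, with a gap to its nearest neighbor above Dixon's critical share of the group's range, out of 8 genes examined; chance flags about 1 in 20 such groups. Cdk4 was lowest in sgRNA2 KO replicate 3, at 22213 normalized read counts, with the other KO libraries at 23912 to 24617. Rbl2 was also lowest in sgRNA2 KO replicate 3, at 1526, with the other KO libraries at 2403 to 2793 and the highest control at 1418. In the same library Ccnd2 (27214) and Cdk6 (3555) were the highest of the KO libraries, and Egfr, at 61647, was above its 25846 to 36573 in the other KO libraries and 19168 to 20115 in control libraries. The part of this library in the other results is given by the values without it.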

How the results depend on the processing

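Over 19 alternatives, the exact permutation test included, Ccnd1, Ccnd3 and Rbl2 kept direction and threshold in KO against control, with log2 fold changes of -3.75 to -2.84, -1.17 to -0.92 and 0.74 to 0.92. Leaving out 1 library gave 1465 to 3639 genes higher and 1312 to 3958 lower in KO, with 1 to 2 members higher and 2 to 5 lower; in sgRNA1 KO 680 to 3740 and 587 to 4160, with members 0 to 2 and 2 to 4; in sgRNA2 KO 329 to 2615 and 314 to 2865, with members 0 to 1 and 1 to 3; and between guides 0 to 94 and 0 to 88. The smallest gene counts against control came without control replicate 2. With no filter 1 member was called higher in KO. Members called lower in KO were 5 with variance weights (Ccnd2, Cdk4 and Rbl1 added) and 4 without the pair of KO libraries nearest the controls. Calls grew among all genes tested as well: 3201 were lower in the main setting, 4669 with variance weights and 3962 without this pair. Without that pair sgRNA2 KO had 2962 genes higher and 3281 lower, and the guides differed in 23 genes higher and 7 lower. For sgRNA2 KO, 0 members were higher with no filter, with the replicate block and with only the 6 libraries compared. The cause of these differences was not tested.

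Direction turned only for genes that passed in no setting of that comparison: Cdk6 in KO (-0.00061 with variance weights, -0.24 without the pair, -0.12 to 0.24 leaving out 1 library) and in sgRNA1 KO (-0.64 to 0.22 leaving out 1 library), and between guides Ccnd3 (0.062 with quantile scaling, 0.018 without the pair, -0.11 to 0.13 leaving out 1 library), Ccnd1 (-1.29 to 0.20) and Rbl2 (-0.065 to 0.37). Shares without division by exon length were, for KO and control, 33.3% and 63.1% for Ccnd1, 59.9% and 34.3% for Ccnd2, 90.4% and 92.1% for Cdk4, 9.57% and 7.92% for Cdk6 and 32.0% and 19.9% for Rbl2, and for control 2.66% for Ccnd3 and 55.3% for Rbl1.

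The replicate numbers did not pair the libraries: same-numbered libraries correlated at -0.345 to 0.332 in their deviations from the group means, and 4 of 9 correlated best with their own number. With the replicate block 5786 genes passed in KO (6227 without), 5241 in sgRNA1 KO (5699), 2632 in sgRNA2 KO (3505) and 0 between guides (0), Rbl1 passed in KO (limma adjusted p = 0.0438) and Rbl2 was lost in sgRNA2 KO (0.0516). The 3 control libraries and a rounded, scaled table limit what small changes such as that of Cdk4 can show.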
